A study of Mus musculus with 14 samples.

Results

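SMAD4 was listed at 12860 consensus peaks in mouse muscle stem cells (MuSCs) stimulated with BMP6. Of these peaks, 2080 (16.2%) also overlapped a listed SMAD4 peak of control cells but no listed pSMAD1/5/9 peak. They are called stable SMAD4-only sites, a name that refers to the peak lists. The pSMAD1/5/9 list after BMP6 is shorter, with 7339 peaks, and pSMAD1/5/9 binding too weak to be listed was not tested. A site was taken when its SMAD4 peak of BMP6-stimulated cells overlapped a SMAD4 peak of control cells by at least 1 bp and no pSMAD1/5/9 peak of BMP6-stimulated cells. Of all 12860 SMAD4 peaks, 5852 (45.5%) overlapped a control SMAD4 peak and 7374 (57.3%) lacked an overlapping pSMAD1/5/9 peak, which are the values that chose the sites. They were set beside 3772 stable shared sites, where SMAD4 was in both conditions and a pSMAD1/5/9 peak of BMP6-stimulated cells overlapped it, and beside 5294 gained SMAD4-only sites, where SMAD4 was listed after BMP6 alone and without pSMAD1/5/9. The remaining 1714 peaks were gained together with pSMAD1/5/9.

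The peaks came from CUT&Tag, in which an antibody directs the Tn5 transposase to chromatin so that DNA is cut and tagged at the bound protein. MuSCs were isolated from skeletal muscle of female mice aged 9 weeks of the genotype C57BL/6N(Tg(Pax7-EGFP)Tajb), sorted for the GFP that the Pax7 transgene drives, and cultured at 3% O2. All cells were held for 6 h in serum-free medium with 200 ng/mL soluble BMP receptor (BMPR-1A-Fc), after which 100 ng/mL BMP6, or as control its vehicle of 4 mM HCl and 0.1% BSA, was added for 1 h. Of 14 libraries of 100000 fixed cells, 12 entered 6 consensus lists, for SMAD4, pSMAD1/5/9 and the histone mark H3K27ac in each condition, with 2 biological replicates per list. The 2 libraries without a primary antibody were not analysed here.

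The lists held 12860 SMAD4 peaks after BMP6 and 8577 in control cells, 7339 and 949 pSMAD1/5/9 peaks, and 78050 and 67790 H3K27ac peaks. Read numbers are not part of the lists, which leaves the depth of each peak unknown, and 2 replicates limit the precision. Each list is a consensus of its replicates, so a share of peaks has an interval for counting error only, and a p-value between sets of peaks describes these lists and not the spread between cultures. The label of the cells was checked against H3K27ac within 2 kb of the transcription start site (TSS) of marker genes. All 10 MuSC markers had such a peak, *Pax7*, *Myf5* and *Myod1* among them. A peak also stood at 3 of 7 fibroblast and fibro-adipogenic markers (*Pdgfrb*, *Col1a1* and *Cd34*, while *Pdgfra*, *Dcn*, *Lum* and *Ly6a* had none), at 1 of 6 endothelial (*Tek*) and at 1 of 6 blood markers (*Cd68*).

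SMAD4 is the common partner of the receptor-activated SMADs. BMP receptors phosphorylate SMAD1, SMAD5 and SMAD9, whereas TGF-β and activin receptors phosphorylate SMAD2 and SMAD3, and either kind enters the nucleus with SMAD4. SMAD3 and SMAD4 recognise the short SMAD-binding element CAGAC, the palindrome GTCTAGAC carries its AGAC core on each strand, and SMAD1 and SMAD5 also bind GC-rich sites such as GGCGCC. In muscle, TGF-β family ligands hold back differentiation, and SMAD complexes share enhancers with factors such as the myogenic E-box proteins and AP-1. H3K27ac marks active promoters and enhancers. SMAD2 and SMAD3 were not measured.

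The sequences that carry the main findings are printed from GRCm39, plus strand, centred on the SMAD4 summit. First come the strongest stable SMAD4-only site, 21011 bp upstream of the TSS of *Ubash3b* (chr9:41090269-41090468, rank 63 of the 12860 peaks by signal), and 4 sites with long tandem runs of the SMAD-binding element, a pattern frequent among the strongest sites. Capitals mark CAGAC or its reverse complement GTCTG, overlapping copies included. The run at *Plk5* (chr10:80198002-80198151, rank 76) lay in a peak that touches an exon, the runs nearest to *Plk2* (chr13:110782079-110782228, rank 144) and *Adamts5* (chr16:85797541-85797690, rank 183) lay in intergenic sequence, and the last (chr5:111723975-111724074, rank 657, nearest gene *Gm26897*) was the strongest autosomal site outside H3K27ac of both conditions.
Ubash3b: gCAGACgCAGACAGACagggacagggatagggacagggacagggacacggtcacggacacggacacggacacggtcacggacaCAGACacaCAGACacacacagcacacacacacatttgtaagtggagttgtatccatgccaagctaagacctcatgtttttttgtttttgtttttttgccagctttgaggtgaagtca
Plk5: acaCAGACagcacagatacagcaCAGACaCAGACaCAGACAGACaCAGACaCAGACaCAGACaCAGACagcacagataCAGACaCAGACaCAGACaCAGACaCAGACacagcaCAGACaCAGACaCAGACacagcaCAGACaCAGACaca
Plk2: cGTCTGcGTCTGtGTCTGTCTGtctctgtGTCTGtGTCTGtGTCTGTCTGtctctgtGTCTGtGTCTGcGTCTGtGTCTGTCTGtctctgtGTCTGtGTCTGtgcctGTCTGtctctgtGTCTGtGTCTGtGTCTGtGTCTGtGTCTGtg
Adamts5: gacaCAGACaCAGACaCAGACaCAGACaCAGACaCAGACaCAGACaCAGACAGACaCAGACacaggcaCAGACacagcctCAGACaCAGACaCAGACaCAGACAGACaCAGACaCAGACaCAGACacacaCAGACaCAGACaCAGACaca
Gm26897: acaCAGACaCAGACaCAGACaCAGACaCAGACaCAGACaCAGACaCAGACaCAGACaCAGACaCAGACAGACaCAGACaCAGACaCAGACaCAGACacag

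The next sites hold the palindrome GTCTAGAC, in capitals. Among stable sites of like strength it was more common without pSMAD1/5/9, but over all stable sites this difference did not pass the threshold of 0.05. Against gained SMAD4-only sites of like strength it was not more common. The printed sites lay in an intron of *Fstl1* (chr16:37608917-37609016, rank 407), in intergenic sequence upstream of *Runx1* (chr16:92893186-92893245, rank 615) and *Gmpr* (chr13:45613813-45613872, rank 889), and in an intron with *Capn12* as the nearest TSS (chr7:28617093-28617152, rank 1474).
Fstl1: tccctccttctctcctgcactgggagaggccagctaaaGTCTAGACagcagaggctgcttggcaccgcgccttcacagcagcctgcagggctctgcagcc
Runx1: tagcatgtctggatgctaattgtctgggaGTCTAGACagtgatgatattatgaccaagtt
Gmpr: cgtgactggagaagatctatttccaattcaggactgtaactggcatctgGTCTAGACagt
Capn12: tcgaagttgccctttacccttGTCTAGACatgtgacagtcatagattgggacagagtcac

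The last group shows the strongest sites with other motifs, each in capitals. The AP-1 site TGACTCA lay where the nearest TSS is that of *Gpr153* (chr4:152345046-152345145, rank 333). A site upstream of *Medag* (chr5:149309912-149310011, rank 678) held the E-box CAGCTG, the sequence of myogenic factors. The strongest site with GGCGCC, a spelling of the GC-rich SMAD site, lay near *Nlgn4l* on the X chromosome (chrX:169067163-169067262, rank 750). The CTCF core, AGGGGGC on the other strand, lay 3367 bp upstream of *Ccn1* (chr3:145359055-145359154, rank 1095).
Gpr153: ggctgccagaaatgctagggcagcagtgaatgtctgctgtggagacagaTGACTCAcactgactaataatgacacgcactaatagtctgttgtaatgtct
Medag: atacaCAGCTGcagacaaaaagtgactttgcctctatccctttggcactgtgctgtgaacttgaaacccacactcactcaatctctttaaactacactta
Nlgn4l: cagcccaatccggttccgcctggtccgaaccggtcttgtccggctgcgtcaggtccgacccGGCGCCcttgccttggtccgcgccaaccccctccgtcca
Ccn1: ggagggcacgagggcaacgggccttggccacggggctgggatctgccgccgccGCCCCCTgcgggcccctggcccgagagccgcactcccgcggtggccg

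Stable SMAD4-only sites were of middle strength. Ranked by SMAD4 signal after BMP6, where a top percentage of 0 is the strongest peak of the list, their median lay at 45.3% with quartiles of 28.1% and 65.5%. Stable shared sites were stronger, with a median of 18.6%, and gained SMAD4-only sites weaker, at 72.6%. Each replicate column alone gave a median of 45.9% and 46.5% for the stable SMAD4-only sites. In control cells, the overlapping SMAD4 peak had a median rank of 53.3%, against 25.7% for stable shared sites. Since the rule used these lists, the ranks are a description without a test. The peaks were 509 bp wide at the median, between 732.5 bp for stable shared and 396 bp for gained SMAD4-only sites. The control summit lay a median of 64 bp from the summit after BMP6, close to the 67 bp of stable shared sites. At 816 of the 2080 sites the control peak held the better rank in its list.

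**Figure D1:**
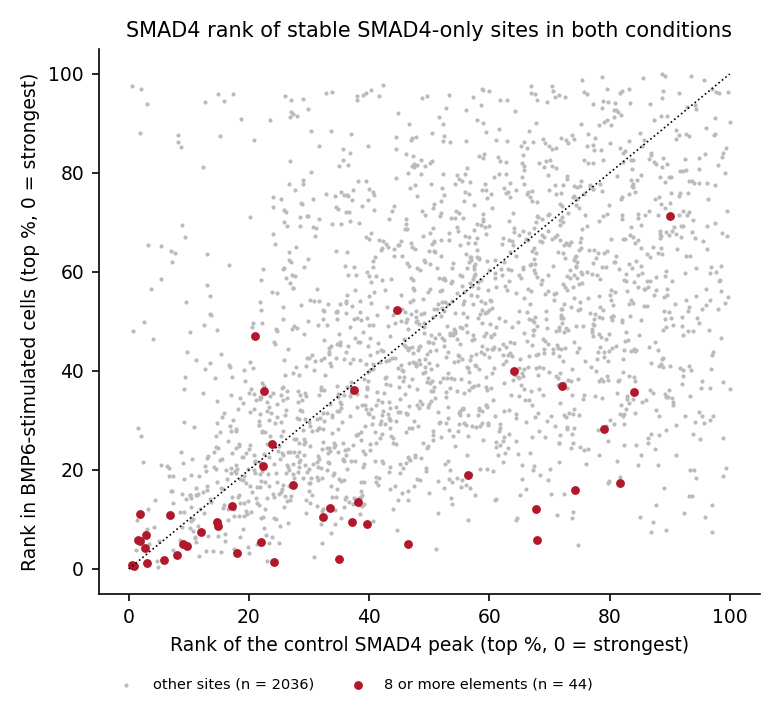
Each point is a stable SMAD4-only site, placed by the rank of its overlapping control SMAD4 peak (x axis) and its own rank after BMP6 (y axis), both as the top percentage of the list. Ranks scatter widely around the dotted line of equal rank, and the 44 sites with 8 or more CAGAC elements (red) gather at the strong end, at a median of 10.0% after BMP6.

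Few sites sat at the edges of the rule. The smallest overlaps with a control SMAD4 peak were 1 bp near *Cd28*, 2 bp near *Aqp1* and 3 bp near *Slc26a9*, and 7 sites had an overlap of at most 20 bp. The smallest gaps to a pSMAD1/5/9 peak were 1 bp near *Cxcr4*, 7 bp near *Map2k3* and 11 bp near *Irf2bpl*, and 55 sites lay within 100 bp of such a peak. Just outside, the smallest overlaps with pSMAD1/5/9 among the stable shared sites were 1 bp near *Usp22*, 3 bp near *Rasl11b* and 6 bp near *Abcc5*, and 10 of them had an overlap of at most 20 bp. At the stricter IDR of 0.01 in every list, 933 stable SMAD4-only sites were left.

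Sites were spread nearly evenly over promoters, introns and intergenic sequence. Of the 2080 sites, 657 (31.6%) lay within 2 kb of a TSS, 106 (5.10%) in an exon, 681 (32.7%) in an intron and 636 (30.6%) in intergenic sequence, against 31.3% at a TSS and 33.7% intergenic over all SMAD4 peaks. Intergenic location was less frequent than among gained SMAD4-only sites, where it reached 36.8% (odds ratio 0.756, two-sided Fisher's exact test with Benjamini-Hochberg adjustment over 10 comparisons, exact adjusted p = 7.81e-07). The TSS share was higher than the 27.7% of gained SMAD4-only sites (odds ratio 1.20, exact adjusted p = 0.00188), but when sites were compared within deciles of SMAD4 signal (Mantel-Haenszel test), the difference did not pass the threshold of 0.05 (odds ratio 1.12, chi-square adjusted p = 0.0727). Against stable shared sites, with 33.6% at a TSS, the order was the other way. The difference missed the threshold over all sites (odds ratio 0.911, exact adjusted p = 0.122) and passed it within deciles of SMAD4 signal (0.811, chi-square adjusted p = 0.00263).

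On the X chromosome lay 49 stable SMAD4-only sites (2.36%), where gained SMAD4-only sites had 5.84% (odds ratio 0.389, exact adjusted p = 8.18e-11), stable shared sites 1.70% (1.40, exact adjusted p = 0.114) and all SMAD4 peaks 3.71%. Among the chromosomes, X also had the smallest part of its SMAD4 peaks in this set, 10.3% of 477, and chromosome 11 the largest, 20.2% of 768. Of the 49 sites on X, 48 lay in H3K27ac, whereas 141 of the 309 gained SMAD4-only sites on X did. Within deciles of SMAD4 signal, the X share exceeded that of stable shared sites (odds ratio 1.84, chi-square adjusted p = 0.00705), but with deciles from the second replicate column this difference did not pass (1.57, chi-square adjusted p = 0.054).

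Nearly all stable SMAD4-only sites lay in active chromatin, but less uniformly than stable shared sites. An H3K27ac peak of BMP6-stimulated cells overlapped 2047 sites (98.4%, Wilson 95% interval 97.8% to 98.9%), against 3770 of 3772 stable shared sites (99.9%; odds ratio 0.0329, exact adjusted p = 1.09e-12) and 90.3% of gained SMAD4-only sites (6.66, exact adjusted p = 1.19e-40). Over all SMAD4 peaks the share was 95.7%. H3K27ac of control cells overlapped 2021 sites (97.2%), with 94% over all SMAD4 peaks. Both H3K27ac lists covered 2017 sites, 30 were covered after BMP6 only, 4 in control cells only and 29 in neither. Stable shared sites had 4, 1 and 1 in these last classes. At the stricter IDR of 0.01, the differences from gained SMAD4-only sites did not pass, with odds ratios of 1.33 for H3K27ac, 1.04 for intergenic location, 0.975 for the TSS and 0.948 for X (exact adjusted p = 0.818, 0.837, 0.862 and 0.902).

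Among stable SMAD4-only sites, acetylation in control cells was least frequent at the strongest SMAD4 peaks, although sites without it were found at every strength. Of the 30 sites with H3K27ac after BMP6 only, 11 were among the 100 strongest stable SMAD4-only sites and 19 among the other 1980. The H3K27ac list after BMP6 is the longer one, with 78050 peaks against 67790 in control cells. Among the 25 strongest sites, H3K27ac peaks listed after BMP6 only ranked from 28259 (nearest gene *Tshz1*) to 60113 (*Psmb7*) of the 78050. Whether acetylation rose at such sites was not tested. In the strongest decile of the SMAD4 list, 72 of 85 stable SMAD4-only sites lay in control H3K27ac (84.7%, 95% interval 75.6% to 90.8%), while 1140 of 1142 stable shared sites did (99.8%). Gained SMAD4-only sites of that decile were close to the former, with 11 of 13 (84.6%). Below rank 50% the shares were 98.0%, 99.8% and, for gained SMAD4-only sites, 85.1%. Tandem CAGAC runs made up 22 of the 85 sites, and control H3K27ac covered only 23 of all 44 stable SMAD4-only sites with runs. The H3K27ac peak itself was also weaker. Its median rank among the 78050 peaks after BMP6 was 8.37% for stable SMAD4-only and 4.28% for stable shared sites, and in the strongest decile 11.9% and 2.44%. These classes were looked at by strength after the values had been seen and have no test.

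**Figure D2:**
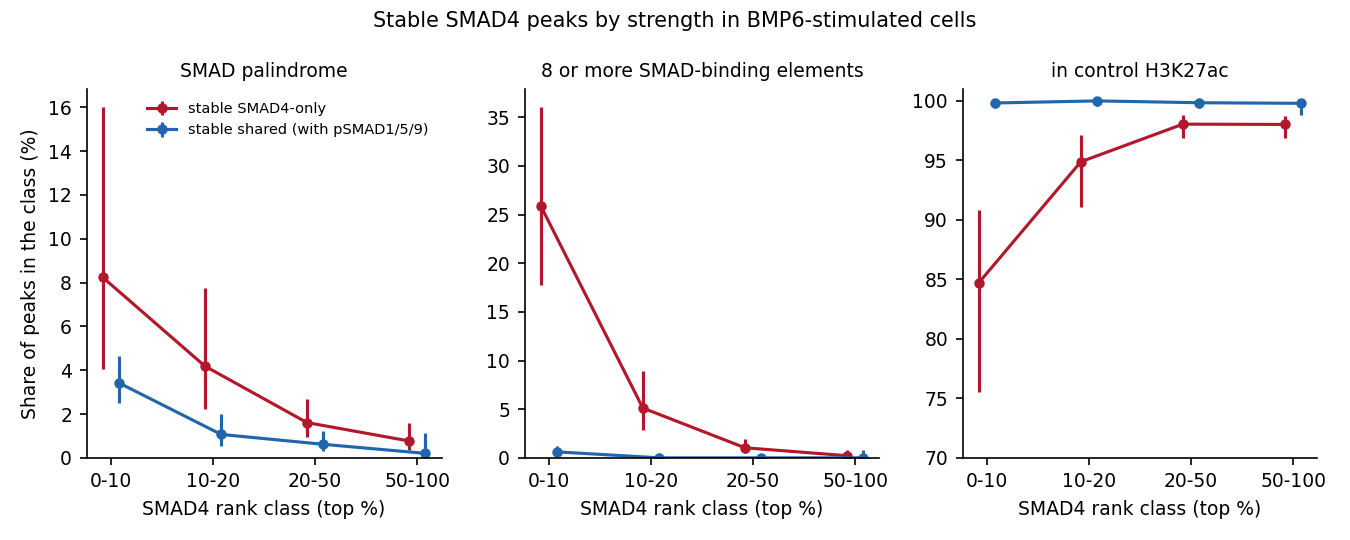
Stable SMAD4 peaks grouped by their SMAD4 rank after BMP6 (x axis, top percentage), with the share in each class (y axis, %; the right panel starts at 70%) that holds the palindrome, 8 or more CAGAC elements, or a control H3K27ac peak. Points are shares and bars Wilson 95% intervals; stable SMAD4-only sites (red) and stable shared sites (blue) lie farthest apart in the strongest decile, at 25.9% and 0.613% for the tandem elements.

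Absence of a pSMAD1/5/9 peak at a site did not mean that none was listed at the locus. The nearest pSMAD1/5/9 peak of BMP6-stimulated cells lay a median of 29160 bp away, with quartiles of 5928 and 112068 bp, 238 sites (11.4%) had such a peak within 1 kb and 883 (42.5%) within 20 kb. Gained SMAD4-only sites had it within 20 kb in 38.5% (odds ratio 1.18, exact adjusted p = 0.00307), and over all SMAD4 peaks, those with pSMAD1/5/9 included, the share was 65.4%. Within deciles of SMAD4 signal the odds ratio was 1.09 (chi-square adjusted p = 0.136) and did not pass the threshold.

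A small group had pSMAD1/5/9 before stimulation. The pSMAD1/5/9 list of control cells has only 949 peaks, and 71 stable SMAD4-only sites (3.41%) overlapped one of them, against 30 (0.567%) of the gained SMAD4-only sites (odds ratio 6.20, exact adjusted p = 6.18e-18), with 6.91% over all SMAD4 peaks. The rule asked for a control SMAD4 peak at the stable sites, and gained sites lack one by definition. The test therefore cannot tell this difference apart from the choice of sites. Sites that carried pSMAD1/5/9 after BMP6 had higher shares, 18.8% of the stable shared sites (711) and 4.49% of the peaks gained with pSMAD1/5/9, which are given without a test. The difference from gained SMAD4-only sites held within deciles of SMAD4 signal (4.50, chi-square adjusted p = 1.81e-08). By rank of the control pSMAD1/5/9 peak, the first of the 71 lay at the promoter of *Mob3a* (rank 14 of 949), followed by *Nudt14* (73), *Chchd4* (157) and *Klf10* (181), a gene known to be induced early by TGF-β. At *Mob3a* and *Klf10* a pSMAD1/5/9 peak of BMP6-stimulated cells lay 76 bp and 418 bp from the site, and at *Chchd4* 85184 bp away.

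Motifs were counted in the 200 bp around the SMAD4 summit, on both strands, for 17 motifs in 34 comparisons adjusted together. The E-box CAGCTG, a sequence that myogenic factors such as MYOD1 bind, was in 31.4% of the windows of stable SMAD4-only sites and in 25.03% of gained SMAD4-only sites (odds ratio 1.37, exact adjusted p = 1.33e-06). Stable shared sites had it in 33.0% (odds ratio 0.928, exact adjusted p = 0.509), control SMAD4 summits in 32.7%, H3K27ac summits in 19.8% and the TSSs of all protein-coding genes in 12.1%. The difference from gained sites was also present without peaks at a TSS (odds ratio 1.52, exact adjusted p = 6.16e-09) and within deciles of SMAD4 signal (1.39, chi-square adjusted p = 5.11e-06), and at an IDR of 0.01 it missed the threshold (1.296, exact adjusted p = 0.0708). Within the stable SMAD4-only sites, the E-box was in 38.7% of windows away from a TSS and 15.7% at a TSS.

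The GC box GGGCGG, bound by SP and KLF factors at promoters, was in 24.7% of the windows, less than the 29.4% of stable shared sites (odds ratio 0.789, exact adjusted p = 0.00232) and more than the 21.1% of gained SMAD4-only sites (1.23, exact adjusted p = 0.00854). Of all TSS windows, 41.1% held it, and of stable SMAD4-only windows at a TSS 57.7%. The difference from gained SMAD4-only sites did not pass within deciles of SMAD4 signal (1.11, chi-square adjusted p = 0.361). Neither the difference from stable shared nor that from gained SMAD4-only sites passed without peaks at a TSS (exact adjusted p = 0.112 and 0.313). The CTCF core was in 6.39% against 8.43% of stable shared sites (odds ratio 0.742, exact adjusted p = 0.0413), a call that 10 of 13 alternatives did not keep. GC content followed the same order, with a mean of 56.2% in stable SMAD4-only, 57.9% in stable shared and 55.1% in gained SMAD4-only sites. The differences of -1.70 and 1.10 percentage points each had the smallest p that a permutation test with 100000 resamples allows (1e-05), and the latter was 0.267 percentage points within deciles of SMAD4 signal (permutation p = 0.329).

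AP-1 (TGACTCA) was in 15.4% of the windows, against 16.2% of stable shared and 14.4% of gained SMAD4-only sites, and neither difference passed (odds ratios 0.941 and 1.08, exact adjusted p = 0.654 and 0.529). The GC-rich SMAD site, GGCGCC or GGAGCC, was in 27.5%, against 30.4% (odds ratio 0.870, exact adjusted p = 0.129) and 26.2% (1.07, exact adjusted p = 0.521). The lower share than at stable shared sites passed in windows of 100 bp (0.804, exact adjusted p = 0.0400) and of 400 bp (0.783, exact adjusted p = 0.000156). At the TSSs of all protein-coding genes, AP-1 was in 2.89% of windows and the GC-rich site in 34.9%. Stable SMAD4-only windows at a TSS held them in 3.96% and 43.5%.

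The motifs of other factors passed in neither comparison. RUNX factors recognise TGTGGT, found in 21.8% of the stable SMAD4-only windows and 9.79% of TSS windows. The TEAD motif GGAATG, through which YAP and TAZ act, was in 15.2% and 7.99%. For RBPJ, the DNA-binding protein of the Notch pathway, either of ATGGGAA and, with another first base, GTGGGAA was in 8.61% and 6.64%. Over all SMAD4 peaks, RUNX, TEAD and RBPJ were about as frequent, with 21.5%, 15.0% and 8.63%. H3K27ac summits after BMP6 held them in 19.2%, 12.4% and 8.48%. RUNX was in 27.8% of stable SMAD4-only windows away from a TSS and in 8.98% of those at a TSS. Motifs known from promoters were less frequent over all stable SMAD4-only windows than over TSS windows. CCGGAAG of the ETS family was in 4.81% and 9.49%, the CCAAT box in 4.47% and 6.92%, NRF1 in 1.298% and 2.99% and CREB in 1.01% and 2.22%. The stable SMAD4-only windows that lie at a TSS held these motifs in 10.7%, 8.07%, 2.89% and 2.13%, close to or above all TSS windows. Forkhead and NF-kappaB motifs were in 1.97% and 1.25% of all stable SMAD4-only windows.

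**Figure D3:**
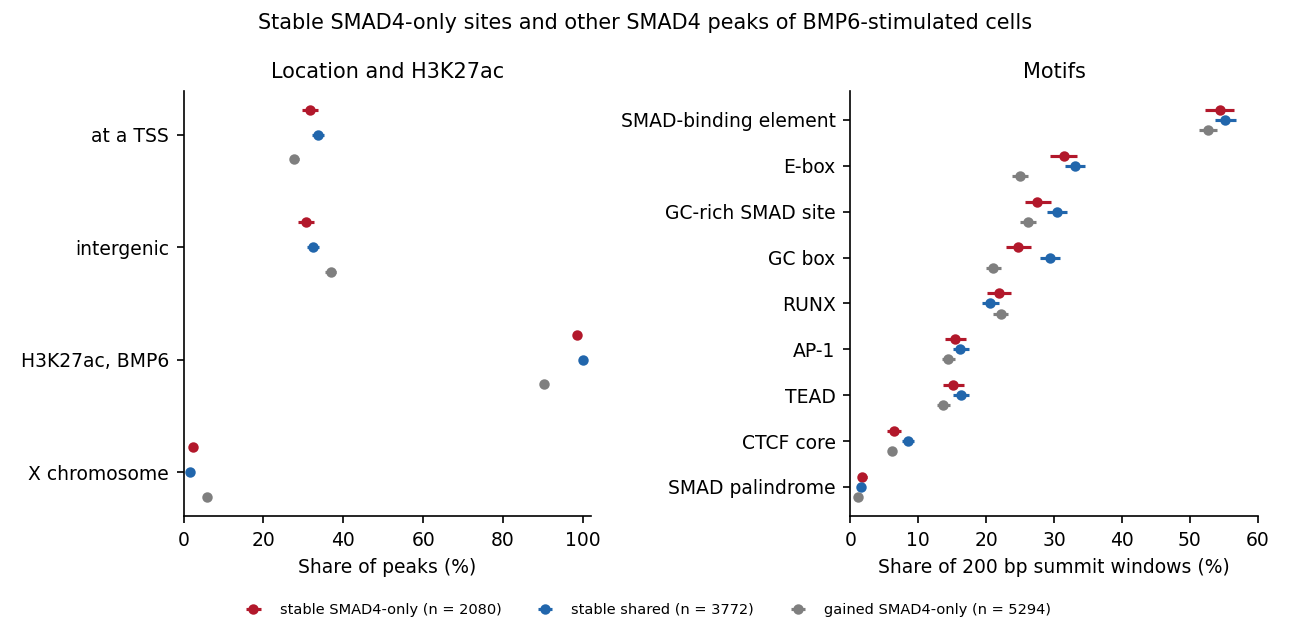
Share of peaks (x axis, %) by location and in H3K27ac of BMP6-stimulated cells (left), and share of 200 bp summit windows holding a motif (right), for stable SMAD4-only sites (red), stable shared sites (blue) and gained SMAD4-only sites (grey). Points are shares and bars Wilson 95% intervals, which are narrower than the point in places; the E-box stands at 31.4%, 33.0% and 25.03%.

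The SMAD palindrome GTCTAGAC was rare and followed strength. It was in 37 stable SMAD4-only windows (1.78%), 57 stable shared (1.51%) and 60 gained SMAD4-only windows (1.13%), with 1.26% over all SMAD4 peaks, 0.260% of H3K27ac summits and 0.0919% of TSSs. Over all sites, neither comparison passed the threshold (odds ratio 1.18, exact adjusted p = 0.654, and 1.58, exact adjusted p = 0.133). Among stable sites of like strength, however, the palindrome was more frequent without pSMAD1/5/9, with a Mantel-Haenszel odds ratio over deciles of SMAD4 signal of 2.99 (chi-square adjusted p = 0.000208), and of 3.01 and 2.65 with deciles taken from each replicate column. In the strongest decile, 7 of 85 stable SMAD4-only windows (8.24%, 95% interval 4.05% to 16.0%) and 39 of 1142 stable shared windows (3.42%, 2.51% to 4.63%) held it, and between ranks of 10% and 20% 9 of 215 (4.19%) and 9 of 843 (1.07%). Against gained SMAD4-only sites of like strength the odds ratio was 0.791 (chi-square adjusted p = 0.623). Of the 37 windows, 3 lay at a TSS and 10 had the palindrome within 20 bp of the summit. Its median distance from the summit was 46 bp, and a preference for the summit was not tested. In windows of 100 bp, the unstratified odds ratio against stable shared sites turned to 0.839 (exact adjusted p = 0.863).

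A copy of the single SMAD-binding element CAGAC was in 54.4% of stable SMAD4-only, 55.2% of stable shared and 52.6% of gained SMAD4-only windows, and neither difference passed (exact adjusted p = 0.720 and 0.443). Within deciles of SMAD4 signal, stable SMAD4-only sites had it more often than stable shared sites (odds ratio 1.25, chi-square adjusted p = 0.0029), but not with deciles from the second replicate column (1.17, chi-square adjusted p = 0.0805). Its copies were unevenly spread. Windows with 8 or more copies numbered 44 among the stable SMAD4-only sites (2.12%, 95% interval 1.58% to 2.83%), 7 among the stable shared (0.186%, 0.0899% to 0.383%), 59 among the gained SMAD4-only (1.11%, 0.865% to 1.43%) and 2 of the 1714 peaks gained with pSMAD1/5/9, so that 0.871% of all SMAD4 peaks had such a run. With 5 or more copies the shares were 3.27%, 0.822% and 1.81%, and with 10 or more 1.73%, 0.159% and 0.907%. This measure was defined after the windows had been seen and has no test.

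The tandem elements were frequent at the strong end of the stable SMAD4-only sites. Mappability of reads at such repeats and the signal there without a primary antibody were not tested. Runs made up 5 of the 10 strongest, 9 of the 25 strongest and 23 of the 100 strongest sites. In the strongest decile of the SMAD4 list, 22 of 85 stable SMAD4-only sites had them (25.9%). There, 7 of 1142 stable shared sites (0.613%) and 3 of 13 gained SMAD4-only sites (23.1%) had them. In the weaker classes, gained SMAD4-only sites had higher shares than stable SMAD4-only sites. The shares were 7.25% against 5.12% between ranks of 10% and 20%, 2.16% against 1.03% between 20% and 50%, and 0.708% against 0.220% below rank 50%. The stable SMAD4-only sites with runs had a median rank of 10.0% after BMP6 and 23.2% in control cells, against 46.0% and 53.7% for the other stable SMAD4-only sites. A window held up to 33 copies, with a median of 15.5, and successive copies on a strand were most often 6 bp apart (52.0% of distances), as in the printed runs. The 44 sites lay on 15 chromosomes, 20 in intergenic sequence, 18 in introns, 4 at a TSS and 2 in exons. None lay on the X chromosome and none overlapped a pSMAD1/5/9 peak of control cells.

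Acetylation at the tandem elements was low. H3K27ac of control cells covered 23 of the 44 sites (52.3%) and H3K27ac after BMP6 34 (77.3%), against 98.1% and 98.9% of the other 2036. The median rank of the H3K27ac peak after BMP6 was 34.9%, against 8.23% for the others. Among the 30 sites with H3K27ac after BMP6 only, 11 were such runs, and among the 29 in neither list 10. Without the runs, the lower H3K27ac share of stable SMAD4-only than of stable shared sites still passed (odds ratio 0.0465, exact adjusted p = 1.07e-08). Summits of the other lists held 8 or more copies in 0.0818% of pSMAD1/5/9 windows after BMP6, 0.205% of H3K27ac windows after BMP6, 0.630% of control SMAD4 windows and 1 of 21757 TSS windows, and in 0 of the 949 control pSMAD1/5/9 windows, which allows a share of up to 0.316%.

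**Figure D4:**
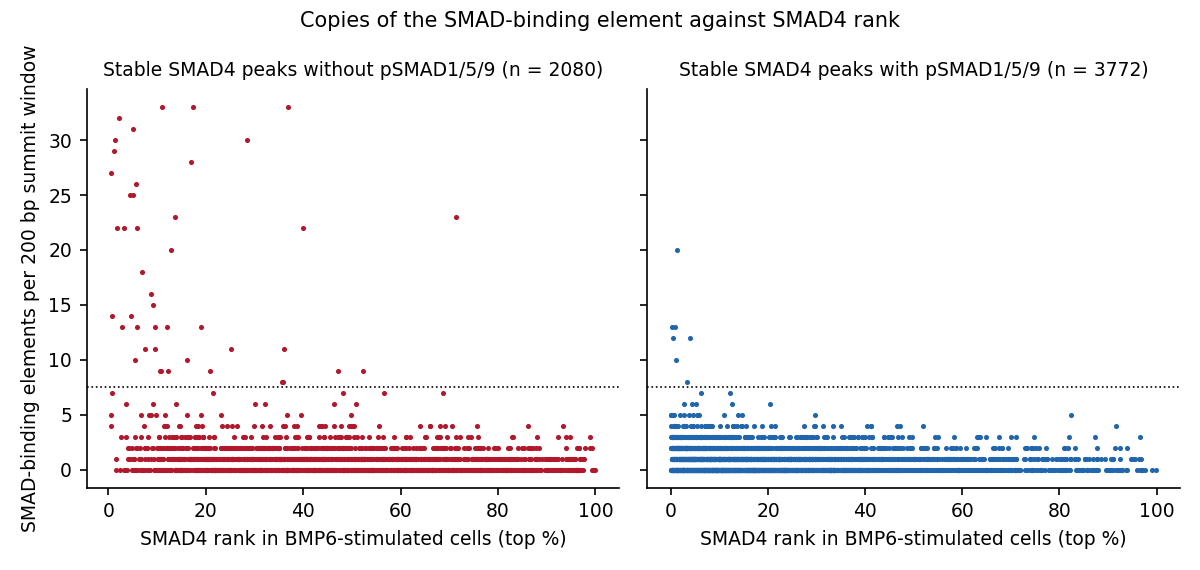
Copies of CAGAC or its reverse complement per 200 bp summit window (y axis) against SMAD4 rank after BMP6 (x axis, top percentage) for stable SMAD4-only sites (left) and stable shared sites (right). Each point is a peak and the dotted line separates windows with 8 or more copies, 44 of 2080 on the left and 7 of 3772 on the right.

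The 10 strongest stable SMAD4-only sites lay mostly far from promoters. The strongest, upstream of *Ubash3b*, ranked 52 and 123 in the replicate columns after BMP6 and 351 and 602 in those of control cells, so it was strong in all 4. *Plk5*, a polo-like kinase gene, had ranks of 132 and 42, and of 45 and 178 in control cells, with 27 CAGAC copies in the window and H3K27ac after BMP6 only. The site nearest to *Gpr6* had ranks of 90 and 117, and of 11 and 17 in control cells, where it was one of the strongest SMAD4 peaks of all (12 of 8577), with 156910 bp to the nearest pSMAD1/5/9 peak. *Mtpap*, for a mitochondrial poly(A) polymerase, was the nearest gene to a site at rank 22 of 8577 in control cells and rank 78 of 12860 after BMP6. The signal scale across lists is not known, so ranks of both lists are given side by side and not as a change.

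An intronic site of *Mpp7*, a polarity scaffold gene, ranked 100 after BMP6 and 46 in control cells. The site 251139 bp from the TSS of *Plk2*, the gene of another polo-like kinase, ranked 144 and 266 with 29 copies, and that near *Adamts5*, which encodes a proteoglycan-cleaving protease, 183 and 2069 with 30 copies. The remaining sites were nearest to *Rapgef2* (202 and 1968), *Fstl3* (206 and 403) and *Map3k7cl* (229 and 510, 22 copies). The replicate columns differed most at *Rapgef2*, with ranks of 95 and 697 after BMP6, and at *Plk2*, with 63 and 629. Of these 10 sites, 7 were intergenic, 2 lay in exons by the extent of the peak and 1 in an intron, and 3 lacked control H3K27ac (*Plk5*, *Adamts5* and *Map3k7cl*).

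Genes were assigned a site when it overlapped the gene body or the 20 kb on either side. Of 21757 protein-coding genes, 2375 (10.9%) had a stable SMAD4-only site and 8557 (39.3%) any SMAD4 peak of BMP6-stimulated cells, so 27.8% of the genes with SMAD4 had such a site. Most of the 2375 genes had 1 site (1965), 75 had 3 or more, and 381 sites lay in no such region. A pSMAD1/5/9 peak was near 1365 of the 2375 genes (57.5%), against 64.5% of all genes with SMAD4, and at 816 genes the stable SMAD4-only sites were the only SMAD4 peaks. Genes with a site were longer, with a median of 23.7 kb against 16.3 kb for all genes, and the part of length in these counts was not tested.

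*Myo1d*, for an unconventional myosin, had the most sites, 6 of its 12 SMAD4 peaks, and shared 5 of them with its neighbour *Cdk5r1*, the activator of the kinase CDK5. *Nav1* had 5 of 14 SMAD4 peaks and *Mpp7* 5 of 8. *Vps26c*, *Stxbp3*, *Fndc7*, *Sil1*, *Aopep* and *Ankrd39* had 4 each. At *Sil1*, which encodes a nucleotide exchange factor of the endoplasmic reticulum, no pSMAD1/5/9 peak was listed, and at *Aopep* 12 were. *Stxbp3* and *Fndc7* are neighbours and shared all 4 sites.

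In a selection of 8 genes that the study discusses, all with SMAD4 peaks, *Id1* and *Myf5* had a stable SMAD4-only site. Of all genes with a SMAD4 peak, 27.8% had one, and the selection was not tested against that share. *Id1*, the classical BMP target whose product holds back myogenic factors, had 1 of its 9 SMAD4 peaks in this set, 5129 bp downstream of the TSS at rank 3453 and 952 bp from a pSMAD1/5/9 peak. *Myf5*, a myogenic determination factor, had 1 of 3, at rank 6887 and 672787 bp from pSMAD1/5/9. That site lay 13578 bp upstream of the *Myf5* TSS, and the nearest TSS was that of *Myf6*, 4917 bp away. *Hes1*, *Hey1*, *Lfng*, *Snai1*, *Myod1* and *Pax7* had none, although *Pax7* had 28 SMAD4 peaks in all, of which 15 were stable shared sites. The summit windows of the sites at *Id1* (chr2:152583244-152583343) and *Myf5* (chr10:107335523-107335622) are shown since these were the only such sites at the 8 genes, with CAGAC or GTCTG in capitals. Each held 1 copy and no palindrome.
Id1: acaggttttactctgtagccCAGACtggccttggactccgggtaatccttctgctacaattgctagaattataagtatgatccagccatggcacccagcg
Myf5: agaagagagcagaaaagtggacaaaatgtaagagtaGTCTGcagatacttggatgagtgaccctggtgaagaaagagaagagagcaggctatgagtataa

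By function, ligand and receptor genes of the TGF-β and activin branch had a stable SMAD4-only site at 9 of 20 genes, with any SMAD4 peak at 15. The strongest belonged to *Tgfb1*, the TGF-β1 ligand, 20836 bp downstream of its TSS (rank 455 after BMP6 and 1098 in control cells), where *Ccdc97* was the nearest gene. *Tgfbr1*, the type I receptor, had a site at its promoter (rank 2602) and *Acvr2b*, an activin and myostatin receptor, one in an intron (rank 3473). For *Tgfbr1* and *Acvr2b* it was the only SMAD4 peak of the gene, and neither had a pSMAD1/5/9 peak. *Ltbp3*, for a latent TGF-β binding protein, had an intronic site (rank 2653).

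BMP ligands, receptors and antagonists had a site at 8 of 22 genes, with any SMAD4 peak at 15. The follistatin-like genes led. *Fstl3*, whose product binds activin and myostatin, had its site in the gene body at rank 206 after BMP6 (248 and 166 in the replicate columns) and 403 in control cells (229 and 1164), 1277 bp from pSMAD1/5/9. *Fstl1*, a secreted follistatin-like protein, had the palindrome site at rank 407 (500 and 353) and 1712 in control cells (1473 and 2355), only 124 bp from a pSMAD1/5/9 peak. *Bmp6* had 2 sites, its only SMAD4 peaks, of which the upstream site at rank 1746 was a run of 23 CAGAC copies outside H3K27ac, with the nearest pSMAD1/5/9 peak 670789 bp away. *Bmp1*, a procollagen protease, followed at rank 6469.

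SMAD genes had a site at 3 of 8 genes. Both inhibitory SMADs were among them, *Smad7* with 2 sites (ranks 3513 and 6147) and *Smad6* with 1 (rank 8067), beside *Smad3* (rank 3635), and all 3 genes also had pSMAD1/5/9 peaks. Genes known to respond to TGF-β had a site at 11 of 26, with any SMAD4 peak at 24. They were led by *Ccn1*, a matricellular protein (rank 1095), the repressor *Bhlhe40* (rank 1303), *Klf10* (rank 1337) and *Tgfbi* (rank 1719), and no pSMAD1/5/9 peak was near *Tgfbi*. Genes known to respond to BMP had a site at 4 of 22, with any SMAD4 peak at 19, which were *Id1*, *Smad7*, *Runx2* and *Smad6*.

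Myogenic genes had a site at 14 of 30, with any SMAD4 peak at 28. The strongest were at *Mymk*, the fusion protein myomaker, whose 2 adjacent intronic sites (ranks 734 and 1419) overlapped the same control peak (rank 159) and held 26 and 33 CAGAC copies. Then came *Foxo3* (rank 1054), *Met*, the HGF receptor, with 16 copies (rank 1119), and *Mef2d* (rank 2020). Notch pathway genes had a site at 11 of 32, with any SMAD4 peak at 24, with *Dtx4* (rank 2746), *Maml3* (rank 2939) and *Numbl* (rank 3991) among the strongest. Of these 3 genes, only *Numbl* had a pSMAD1/5/9 peak.

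Actin cytoskeleton and adhesion genes had a site at 11 of 32, with any SMAD4 peak at 27, led by *Palld* (rank 728), *Myh9* (1171), *Flna* (1341) and *Actn4* (1474), whose site holds the palindrome printed under *Capn12*. AP-1 genes had a site at 3 of 17 (*Fosb*, *Jun* and *Mafk*), YAP, TAZ and TEAD pathway genes at 4 of 23 (*Ccn1*, *Stk4*, *Tead1* and *Tead4*) and cell cycle genes at 6 of 22, led by *Ccne1* (rank 2839), *Ccnd3*, *Cdk6* and *E2f1*. Over all protein-coding genes the share was 10.9%, and the share of each list was above it. Of the genes with any SMAD4 peak, 27.8% had a site. By that measure the AP-1 family (3 of 12), the YAP, TAZ and TEAD pathway (4 of 16) and the BMP response (4 of 19) lay near or under that share. With so few genes these counts cannot be told apart from it. The remaining lists lay above that share, from actin and adhesion genes (11 of 27) to TGF-β and activin ligands and receptors (9 of 15). They are small as well, and no list was tested against that share or against another list. The lists had a median gene length between 5.27 kb for the BMP response and 62.1 kb for the SMAD genes. The lists are described by their counts only, since they were chosen with results of these data known.

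**Figure D5:**
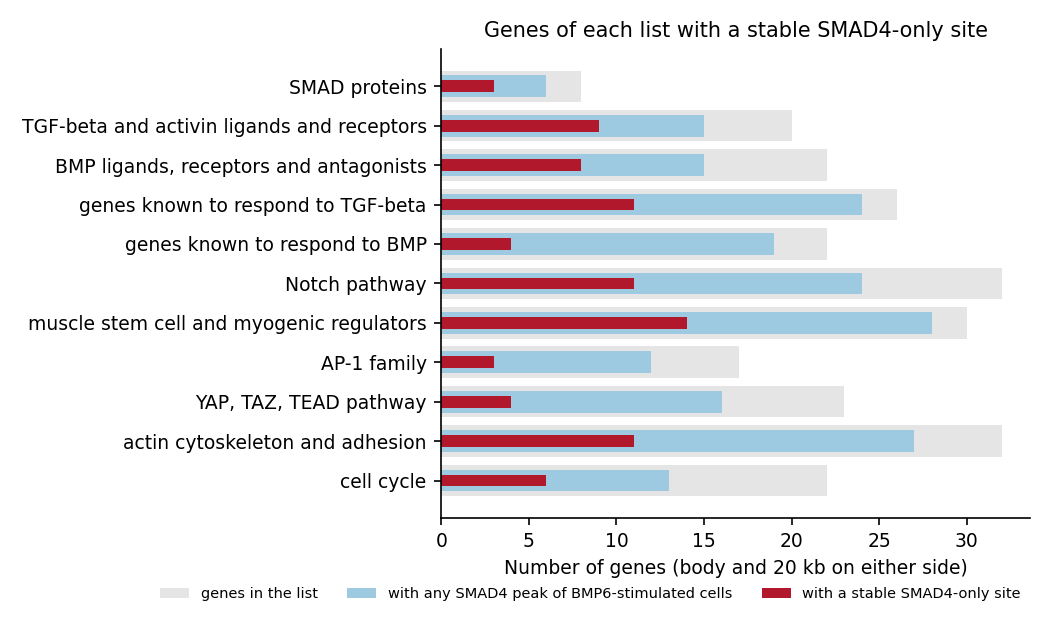
Number of genes (x axis) in each list (grey), with any SMAD4 peak of BMP6-stimulated cells (blue) and with a stable SMAD4-only site (red) in the gene body or the 20 kb on either side. The red bars run from 3 genes for SMAD proteins and the AP-1 family to 14 for myogenic regulators.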

How the data were processed

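CUT&Tag libraries of SMAD4, pSMAD1/5/9 and H3K27ac were made from BMP6-stimulated and control MuSCs. Per the study's methods, the authors brought the libraries of an antibody to the same read number, used Bowtie2 2.5.4 for alignment to GRCm39, kept properly paired, well mapped and non-duplicate reads outside blacklisted regions with SAMtools 1.21, called peaks per replicate with JAMM (filtered peaks for SMAD4 and pSMAD1/5/9, all peaks for H3K27ac) and kept peaks shared by both replicates at an IDR of 0.05. Bedtools 2.31.1 is also named in the submitters' processing notes. The deposited signal score of a peak is the sum of its values in the replicate columns, which carry no replicate number, and was used as ranks within a list only. The IDR was deposited by the authors as −log10.

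From these lists, peak overlap (at least 1 bp), summit windows of 200 bp, genes (GENCODE vM39, 21757 canonical protein-coding transcripts) and motifs on both strands were computed (CCAAT as CCAATCA, CREB as TGACGTCA, NRF1 as GCATGCGC and forkhead as TGTTTAC). A peak was assigned in the order TSS (2 kb on either side), exon, intron and intergenic. Where a site overlapped 2 control peaks (54 sites), the stronger was used. Shares were compared with two-sided Fisher's exact tests, within deciles of SMAD4 signal with the Mantel-Haenszel chi-square test with continuity correction, and GC content with a permutation test, using scipy and statsmodels. P-values were adjusted (Benjamini-Hochberg) over 10 location, acetylation and pSMAD1/5/9 comparisons and over 34 motif comparisons. The overlap, motif search and tests were checked on simulated data. The members and gene lists were chosen with earlier results of these data known. Runs of CAGAC, the strength classes and the printed windows with runs, further palindromes or the E-box were chosen after values were seen. Named sites are the 10 strongest, those nearest to each edge of the rule, up to 4 genes per list by rank, the genes with most sites and genes the study discusses. A marker list and a gene that these rules would name are not reported here.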

Additional observations from a re-analysis of the deposited data

How the results depend on the processing

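The lower H3K27ac share than at stable shared sites and the higher share with control pSMAD1/5/9 than at gained SMAD4-only sites kept direction and call under all alternatives that gave a value. The latter cannot be told apart from the choice of sites by control SMAD4 under any of them. At an IDR of 0.01 no gained SMAD4-only site had control pSMAD1/5/9, which leaves no finite odds ratio. Over the alternatives of the comparisons, counts and ranks, 205 values kept their direction and call or, where they have none, stayed near the reported value, 26 counts or ranks moved, 17 turned direction, 17 newly passed the threshold and 13 no longer did. Of the values for single motifs, 41 were kept, 15 turned, 1 newly passed and 21 no longer passed. Libraries of an antibody were brought to the same read number by the authors, but the reads behind each peak are unknown. The causes of these changes were not tested. No paired analysis was possible because the replicate columns carry no replicate numbers and each list is a consensus of both replicates.

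With an IDR of 0.01, 933 sites and 1127 genes were left, at median ranks of 22.9% after BMP6 and 25.1% in control cells. The odds ratios were then, against gained SMAD4-only sites, 0.975 at a TSS, 1.04 for intergenic location, 1.33 in H3K27ac, 0.948 on X, 1.08 for pSMAD1/5/9 within 20 kb, 0.864 for the GC-rich site, 0.866 for AP-1, 0.986 for the CTCF core and 1.30 for the E-box, with a GC difference of -0.147 percentage points, and against stable shared sites 1.04 at a TSS and 1.17 for CAGAC. Other motifs passing then numbered 0 in both comparisons.

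Within deciles of SMAD4 signal, the odds ratios against stable shared sites were 0.811 at a TSS, 1.05 for intergenic location, 1.84 on X, 2.99 for the palindrome and 1.25 for CAGAC. Against gained SMAD4-only sites they were 1.12 at a TSS, 1.09 for pSMAD1/5/9 within 20 kb, 0.791 for the palindrome, 0.885 for CAGAC and 0.895 for the CTCF core, with a GC difference of 0.267 and 0 other motifs passing. Deciles were also taken from each replicate column in turn, while the peaks stayed the consensus of both replicates. This gave, against stable shared sites, 0.807 to 0.852 at a TSS, 1.02 to 1.05 for intergenic location, 1.57 to 1.89 on X (1.57, with the second column, did not pass), 2.65 to 3.01 for the palindrome, 0.954 to 1.01 for AP-1, 1.17 to 1.24 for CAGAC and 1 to 2 other motifs. Against gained SMAD4-only sites it gave 1.11 to 1.15 at a TSS, 1.10 to 1.11 for pSMAD1/5/9 within 20 kb, 0.802 to 0.986 for the palindrome, 0.900 to 0.910 for CAGAC, 0.915 to 0.931 for the CTCF core, a GC difference of 0.387 to 0.433 and 0 other motifs. By each replicate column alone, the median ranks were 45.9% to 46.5% after BMP6 and 52.7% to 53.2% in control cells.

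The TSS odds ratio against stable shared sites was 0.812 with 1 peak per 10 kb locus, 0.883 with all basic transcripts and 0.850 with lncRNA genes. An overlap of 50% gave 1.76 on X against stable shared and 1.98 for the palindrome against gained SMAD4-only sites. With pSMAD1/5/9 within 1 kb counted as present, AP-1 gave 1.02 against stable shared sites and pSMAD1/5/9 within 20 kb 1.11 against gained ones. In windows of 100 bp, against stable shared sites, the palindrome gave 0.839, the GC-rich site 0.804, which then passed, and CAGAC 1.03. In windows of 400 bp, the E-box gave 0.860 and the GC-rich site 0.783, both of which then passed, and the palindrome 1.63 against gained SMAD4-only sites. The palindrome gave 0.988 with 1 peak per locus. Windows at the midpoint, an alternative chosen after seeing the data, gave 1.10 for AP-1 and 1.04 for CAGAC against stable shared sites. The CTCF core against gained SMAD4-only sites gave 0.977 on autosomes and 0.998 without peaks at a TSS. Genes with a site numbered 4644 with lncRNA genes and 633 for the TSS region alone.

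Other motifs passing against stable shared sites, 2 in the report, numbered 0 with 50% overlap, 0 with the 1 kb definition, 1 without peaks at a TSS, 1 without tandem CAGAC runs and 4 in windows of 400 bp. Against gained SMAD4-only sites, 1 in the report, they numbered 2 with 50% overlap, 2 with 1 peak per locus, 3 at the midpoint, and 0 on autosomes, without peaks at a TSS and in windows of 100 bp.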

Other observations

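Tandem runs of CAGAC elements also stood at intronic sites nearest to the TSS of the glycolytic gene *Gapdh* (9 copies, rank 6049 of the SMAD4 list after BMP6) and of the Notch co-activator gene *Maml2* (8 copies, rank 4611). The run nearest to *Lum*, which encodes the matrix proteoglycan lumican, held 33 copies at rank 4743 and lay outside H3K27ac of both conditions. The site at the *Mob3a* promoter, a peak of 186 bp that overlaps only the edge of a wider control peak, had rank 12555 of 12860 after BMP6 (12418 and 12280 in the replicate columns) and that control peak rank 48 of 8577 (49 in each column), with a pSMAD1/5/9 peak of BMP6-stimulated cells 76 bp away.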
